A study of Mus musculus with 66 samples.

Results

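Lungs of Nrf2 knockout and wild-type mouse embryos were compared at embryonic day 13.5 (E13.5), on 1 Affymetrix mouse expression array per sample. The comparison takes in the 3 samples titled knockout and the 3 titled wild type at that age, 6 of the 66 samples of the series, and all 45037 non-control probe sets of the array. Knockout embryos carried Nrf2-/- and wild-type embryos Nrf2+/+, and the construction of the deleted allele and the strain background are not given in the sources used here. Each sample was total RNA from homogenised whole lung, with 2 to 3 lungs combined in a sample at this age. The other 60 samples, 3 of each genotype at 10 later ages up to postnatal day 42 (PND42), served to estimate the spread and to show how the difference at E13.5 compared with that at other ages. The samples of a group are called biological replicates in the labels, which do not say whether embryos of a group shared a litter, so the p-values measure the spread between these samples.

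Nrf2, encoded by Nfe2l2, is a transcription factor that is held in the cytoplasm and marked for degradation by Keap1. Oxidants and electrophiles release it, and with a small Maf partner it binds the antioxidant response element and switches on enzymes of glutathione, thioredoxin and quinone metabolism. At E13.5 the mouse lung is a branching epithelial tree in loose mesenchyme, in which airway and alveolar cell types have not yet matured. Club cells, the secretory cells of the airways, and alveolar type 1 and type 2 cells, which form the gas exchange surface and make surfactant, acquire most of their characteristic products later in gestation and after birth.

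Values are log2(signal + 16) after quantile normalisation, a scale on which a signal of 0 stands at 4. Changes of dim genes are therefore understated. Replicate numbers are given after the genotype (KO 1 to KO 3, WT 1 to WT 3), and each trio of values is in that order.

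The 6 libraries were unlike within both groups. Of 18193 genes, 328 were at least 1 log2 unit higher in KO 1 than in both other knockout libraries, against 80 for KO 2 and 89 for KO 3. In wild type, 531 genes were at least 1 unit higher in WT 2 than in both others, against 156 for WT 1 and 119 for WT 3. The genes farthest above in KO 1 included Myl3 and Myl2, the ventricular myosin light chains of heart muscle, at 12.95 and 13.91 in KO 1. Those farthest above in WT 2 were led by Ibsp, the bone sialoprotein, at 12.02 in WT 2, and also held the liver products Serpina6 and Apoa2. KO 2 stood lowest of the knockouts in Scgb1a1, Hp, Inmt and the macrophage gene Chil3. The lowest correlation between 2 libraries was 0.9676 within knockouts and 0.9584 within wild type, and no 2 libraries held identical values. Array weights, which are low for libraries far from their group mean, were 0.573, 0.951 and 2.47 in knockouts, and 0.602, 0.454 and 0.954 in wild type. Y-linked genes were high in all knockout libraries and in WT 3 and near the floor in WT 1 and WT 2 (Eif2s3y 9.93, 10.21 and 8.99 in knockouts, 4.83, 4.28 and 9.36 in wild type), so the sex make-up of the pools differed between libraries.

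Lung epithelial markers were read library by library. Of 17 genes of the early lung epithelium, such as Foxa2 and Nkx2-1, the factors that specify lung endoderm, and Epcam, an epithelial adhesion molecule, 0 rose and 0 fell. Epcam stood at 11.73, 11.94 and 11.93 in knockouts and at 11.66, 10.91 and 11.96 in wild type. Nkx2-1 was dimmer, at 6.92, 6.43 and 6.82 in knockouts and at 6.52, 5.53 and 6.99 in wild type. The list mean was 10.08, 10.17 and 10.21 in knockouts and 10.21, 9.61 and 10.15 in wild type, and WT 2 was the lowest of the 6.

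Nfe2l2 itself was lower in every knockout library, but to unequal extents. Its main probe set (chromosome 2) read 8.26, 5.43 and 6.76 in knockouts and 10.85, 10.49 and 10.58 in wild type. As deposited, the signals were 343, 28.1 and 103.5 in knockouts and 2273, 1765 and 1908 in wild type, so the normalised knockout signals were 18.3%, 1.70% and 5.83% of the wild-type mean. KO 1 was the highest knockout library and KO 2 the lowest, and the groups did not overlap. The difference was -3.82 ± 0.34 (SE, n = 3 per group, limma, adjusted p = 7.8e-11). This standard error, like every ± value below, comes from a spread pooled over all groups of the series. The standard deviation of Nfe2l2 at E13.5 was 1.42 in knockouts and 0.189 in wild type, and with the 6 libraries fitted alone its adjusted p was 0.21. In the 30 knockout libraries of the other 10 ages the level ranged between 4.41 and 6.16 with a median of 5.24, so KO 1 and KO 3 stood above all of them. The knockout difference was accordingly 2.65 smaller in size at E13.5 than the mean of the other ages (adjusted p = 2.5e-06). The second Nfe2l2 probe set was dim in all 6 libraries (4.36, 5.35 and 5.44 in knockouts, 5.09, 4.89 and 4.46 in wild type) and showed no difference that passed (0.24, adjusted p = 0.84). Whether the probes lie within the deleted stretch is not given in the sources used here.

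Across the array, 692 of 45037 probe sets passed at an adjusted p under 0.05, 1.54% of those tested. Of these, 273 (0.606%) were higher in knockouts and 419 (0.93%) lower, and the share higher was 39.5%, against 24.9% with signals as deposited and 51.1% with array medians subtracted. Taking for each gene its probe set of highest mean signal, with the same adjustment over all probe sets, 357 of 18193 genes passed (1.96%), 132 higher (0.726%) and 225 lower (1.24%). This count rests on a spread shared with the 60 other libraries. When the 6 E13.5 libraries were fitted alone, 0 probe sets passed and 4102 had an unadjusted p under 0.05. With array weights by group, 104 passed. These weights were estimated without the group means, so they take in distance from the mean of all libraries as well as spread within a group. Without WT 3 there were 1693 calls, without KO 2 325, without WT 1 353, without WT 2 351 and without both KO 1 and WT 2 222. With Xist level as a covariate, which follows the sex of the pools, 611 passed. Single genes were not tested by exact permutation, whose smallest p with 3 against 3 libraries is 0.1.

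The largest rise was that of Scgb1a1, the secretoglobin that is the main secretory product of club cells. It read 14.76, 10.50 and 13.87 in knockouts and 4.43, 7.57 and 5.47 in wild type. The deposited signals were 30320, 1785 and 18500 in knockouts and 5.89, 203 and 31.95 in wild type. Every knockout library was above every wild-type library, and the difference was 7.21 ± 0.50 (adjusted p = 6.2e-15, 3.8e-12 at the highest when 1 library was left out). That standard error is pooled over all groups. The standard deviation of Scgb1a1 at E13.5 was 2.25 in knockouts and 1.6 in wild type, and with the 6 libraries fitted alone its adjusted p was 0.21. In bulk lung RNA, more cells of a type and more RNA per cell cannot be told apart, and other sources of the signal were not tested. Inmt, a methyltransferase of small amines that marks lung fibroblasts, read 11.70, 7.28 and 9.89 in knockouts and 5.73, 5.75 and 5.42 in wild type (3.99 ± 0.47, adjusted p = 3.0e-07). Cyp2f2, the club cell cytochrome P450 that activates naphthalene, read 11.43, 6.74 and 9.32 in knockouts and 5.74, 5.18 and 4.82 in wild type (3.92 ± 0.42, adjusted p = 2.5e-08). Hp, the haemoglobin-binding haptoglobin, read 10.36, 4.97 and 8.29 in knockouts and 4.46, 4.67 and 4.23 in wild type (3.42 ± 0.56, adjusted p = 0.00016). Its standard deviation in knockouts was 2.72, and with the 6 libraries fitted alone its adjusted p was 0.45. In each of these 4 genes KO 1 was the highest knockout library and KO 2 the lowest, and for Hp the KO 2 value was within 1 unit of wild type.

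**Figure D1:**
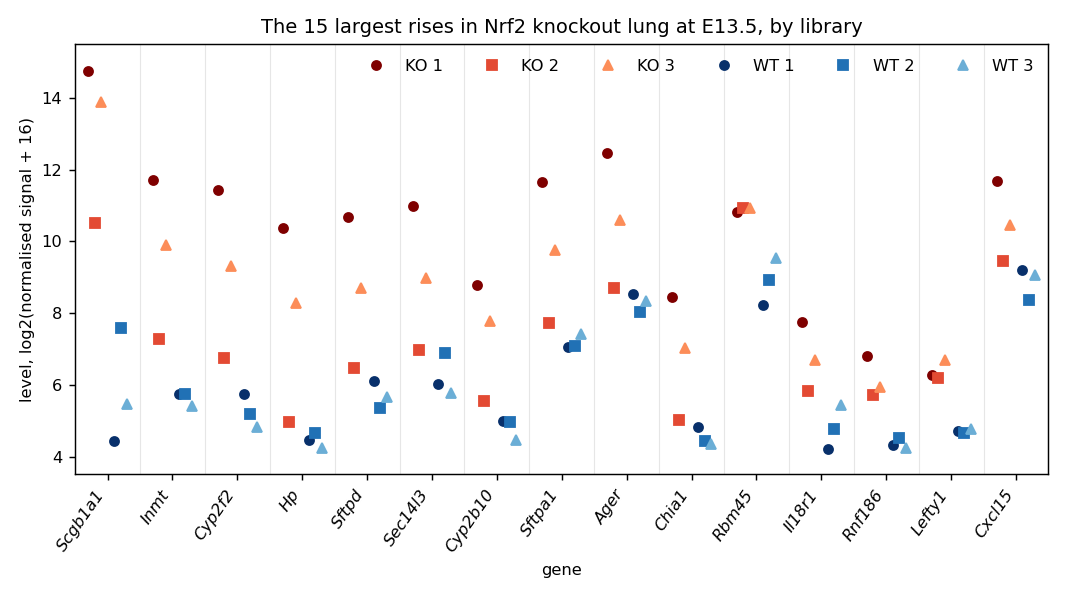
Level of the 15 genes with the largest rises, as log2(normalised signal + 16), in each knockout (red) and wild-type (blue) library at E13.5. In Scgb1a1 the knockout libraries stand at 14.76, 10.50 and 13.87 and the wild-type libraries at 4.43, 7.57 and 5.47, and in 13 of the 15 genes KO 1 is highest and KO 2 lowest of the knockouts.

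The 15 largest rises among genes that passed and whose groups did not overlap (109 genes, 0.599% of those tested, and 0.469% of probe sets) ran between 1.66 and 7.21. The surfactant collectins, which bind microbes in the airspace, were among them. Sftpd read 10.68, 6.46 and 8.71 in knockouts and 6.11, 5.35 and 5.65 in wild type (2.91 ± 0.41, adjusted p = 1.8e-05). Sftpa1 read 11.64, 7.73 and 9.77 in knockouts and 7.05, 7.08 and 7.43 in wild type (2.53 ± 0.38, adjusted p = 3.0e-05). KO 1 was highest in both. Ager, the receptor for advanced glycation end products that is abundant on alveolar type 1 cells, read 12.46, 8.71 and 10.60 in knockouts and 8.52, 8.02 and 8.33 in wild type (2.30 ± 0.34, adjusted p = 2.9e-05). Others were Sec14l3, a lipid-binding protein (2.75), Cyp2b10, a cytochrome P450 (2.56), Chia1, an acidic chitinase (2.29), Il18r1, an interleukin-18 receptor subunit (1.95), Rnf186, a ubiquitin ligase (1.79), and Cxcl15, a chemokine of lung epithelium (1.66). Without KO 1 the difference shrank by over 1.5 times in 7 of the 15, to 2.18 for Hp, 1.88 for Sftpd, 1.75 for Sec14l3, 1.57 for Sftpa1, 1.48 for Chia1, 1.36 for Ager and 1.08 for Cxcl15, and all 7 still passed. The knockout libraries ran in the order KO 1, KO 3, KO 2 in 13 of the 15. The exceptions were Rbm45, an RNA-binding protein gene, and Lefty1, an inhibitor of Nodal signalling. Lefty1 was uniform within groups, at 6.26, 6.19 and 6.69 in knockouts and 4.71, 4.66 and 4.78 in wild type, but dim (1.66 ± 0.46, adjusted p = 0.047), and it was the only one of the 15 whose call was lost with array weights by group or when 1 library was left out. Its difference was then about as large, at 1.72 without KO 1 (adjusted p = 0.085) and 1.63 without WT 2 (adjusted p = 0.15).

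Promoters are shown for Inmt, Cyp2f2 and Sftpa1, whose levels ran together across the knockout libraries. That of Gsta3, a glutathione transferase gene used as an Nrf2 target, is shown beside them. The sequences are the 250 bases before the start of transcription, 5′ to 3′, from RefSeq (GRCm38.p6), and capitals mark a motif found on either strand. Inmt lies at chr6:55174991-55175240, minus strand. Cyp2f2 lies at chr7:27119705-27119954, plus strand. Sftpa1 lies at chr14:41131538-41131787, plus strand. Gsta3 lies at chr1:21240335-21240584, plus strand.
Inmt: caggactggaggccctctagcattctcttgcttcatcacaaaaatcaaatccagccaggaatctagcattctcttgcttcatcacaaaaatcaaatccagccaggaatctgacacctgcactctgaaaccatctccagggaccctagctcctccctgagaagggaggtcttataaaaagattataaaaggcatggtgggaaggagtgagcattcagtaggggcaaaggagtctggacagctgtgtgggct
Cyp2f2: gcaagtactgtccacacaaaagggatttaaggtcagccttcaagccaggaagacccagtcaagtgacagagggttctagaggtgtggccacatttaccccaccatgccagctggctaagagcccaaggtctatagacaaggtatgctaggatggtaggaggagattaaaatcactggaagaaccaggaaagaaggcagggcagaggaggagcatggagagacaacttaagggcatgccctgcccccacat
Sftpa1: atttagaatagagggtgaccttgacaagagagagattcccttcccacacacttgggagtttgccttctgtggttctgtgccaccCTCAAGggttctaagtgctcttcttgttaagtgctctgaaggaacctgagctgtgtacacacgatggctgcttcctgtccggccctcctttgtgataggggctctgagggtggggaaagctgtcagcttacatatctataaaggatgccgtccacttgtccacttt
Gsta3: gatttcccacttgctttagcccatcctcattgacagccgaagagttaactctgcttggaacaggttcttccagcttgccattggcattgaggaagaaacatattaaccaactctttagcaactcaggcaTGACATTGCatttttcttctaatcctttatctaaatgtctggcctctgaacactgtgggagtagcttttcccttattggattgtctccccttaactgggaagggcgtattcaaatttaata

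Of the 15 largest rises, 11 had a promoter in the table. The motifs searched on both strands were the antioxidant response element core TGACNNNGC, the forkhead motif TGTTTAC bound by FOXA factors, the NKX2-1 motif core CTCAAG and the C/EBP motif TTGCNNCAA, which do not overlap in the promoters shown. The antioxidant response element core was found in 0 of the 11 promoters, against 10.1% of 27025 promoters in the table. The CTCAAG core was found in 1 of 11, that of Sftpa1, with its first base 166 bases before the start, against 13.5% of all promoters. The forkhead and C/EBP motifs were found in 0 of 11, against 3.12% and 1.71% of all. Of 35 listed Nrf2 target genes with a promoter, 6 held the antioxidant response element core, among them Gsta3. These are descriptions of the letters in this window.

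Genes of the mature lung were then taken as a group. They were the 263 genes at least 3 log2 units higher in wild-type lung at PND42 than at E15.5, with an adjusted p under 0.05. The E13.5 levels did not enter that difference, but its pooled spread and the choice of probe set drew on all libraries. Of the 263 genes, 32 rose in E13.5 knockouts (12.2%, against 0.726% of all genes) and 0 fell. The 32 included Scgb1a1, Sftpd, Slc34a2, the sodium phosphate transporter of type 2 cells (2.34), Aqp5, a water channel (1.72), Cbr2, a carbonyl reductase (2.24), and Cyp4b1, a cytochrome P450 (1.62). The median difference of the 263 was 0.41, against 0.00 over all genes. Their mean level was 7.99, 6.48 and 7.04 in knockouts and 6.57, 6.72 and 6.57 in wild type. KO 1 was the highest and KO 3 the next, and KO 2 lay below every wild-type library. The order KO 1, KO 3, KO 2 held in 205 of the 263 genes (77.9%), against 24.1% of all genes. The same order held for residual Nfe2l2 signal. Without KO 1, 18 of the 263 rose and 2 fell, and without WT 2, 25 rose and 0 fell.

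**Figure D2:**
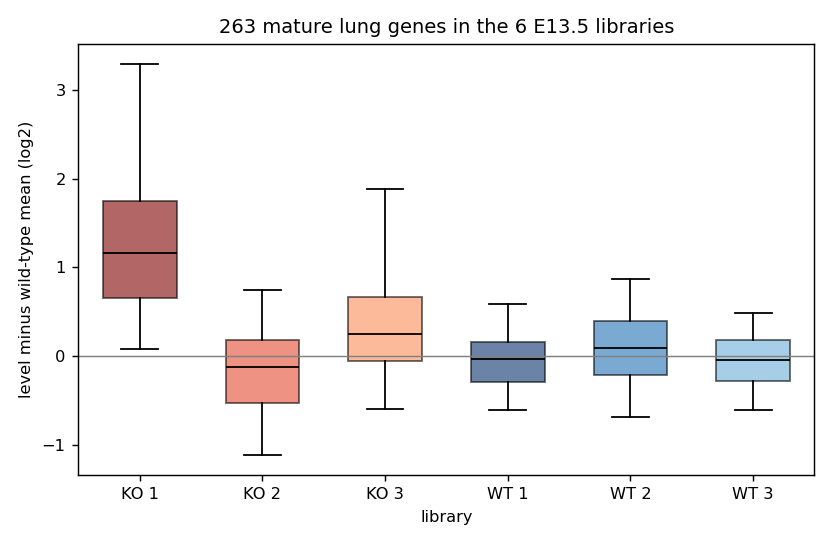
Level of the 263 mature lung genes in each E13.5 library minus the wild-type mean of the same gene (log2). Boxes give the quartiles and median over genes and whiskers the 5th and 95th percentiles. The box of KO 1 lies above 0 and that of KO 2 spans it, with mean levels of 7.99 in KO 1 and 6.48 in KO 2.

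Expressed against adult lung, the median mature gene stood at 11.1%, 3.75% and 5.10% of its wild-type PND42 level in knockouts, and at 4.12%, 4.07% and 4.22% in wild type. The median excess over the wild-type E13.5 mean was 6.28% of the adult level in KO 1, -0.629% in KO 2 and 0.782% in KO 3. Among single genes, the level in KO 1 was 7.50% of the adult level for Hp, 10.7% for Sftpd, 11.5% for Cyp2f2, 13% for Inmt and 13.6% for Sftpa1. Their wild-type E13.5 levels were between 0.0162% and 0.669%, so nearly all of the KO 1 level was excess. The like value over the 263 genes is the median excess in KO 1 of 6.28%, with quartiles of 4.47% and 8.03%. Scgb1a1 stood at 86.2%, 4.45% and 46.5% of the adult level in knockouts, and at 0.0175%, 0.542% and 0.0887% in wild type. Residual Nfe2l2 in KO 1 was 9.23% of the wild-type adult level. The 220 early lung genes were defined likewise, as at least 3 units lower at PND42 than at E15.5. They averaged 10.18, 10.28 and 10.30 in knockouts and 10.34, 10.14 and 10.27 in wild type, and 0 rose and 1 fell. At E15.5 the mature genes averaged 7.30, 6.76 and 6.96 in knockouts and 7.05, 7.02 and 6.90 in wild type.

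By cell type, 5 of 11 club cell genes rose, 7 of 14 type 1 genes and 5 of 15 type 2 genes, and none of these lists held a gene that fell. In all genes 0.726% rose. The club cell genes were Scgb1a1, Cyp2f2, Hp, Cbr2, a carbonyl reductase (2.24 ± 0.41, adjusted p = 0.00079), and Scgb3a2, a secretoglobin (1.45 ± 0.28, adjusted p = 0.0014). The list had a median difference of 1.45 and a mean level of 9.63, 7.21 and 8.58 in knockouts and 6.75, 6.53 and 6.71 in wild type, so that each knockout library was above each wild-type one. Without KO 1 the median was 0.78, the difference of Cbr2 1.18 (3.40 without KO 2) and that of Scgb3a2 0.78, which no longer passed (adjusted p = 0.071). The other 6 genes gave no call. Scgb3a1, a secretoglobin of mucous cells, read 8.08, 6.91 and 7.54 in knockouts and 6.10, 5.69 and 6.26 in wild type (adjusted p = 0.59), without overlap, as in 8.02% of all genes in that direction. Without KO 1, without WT 2 and without both, 4, 4 and 3 of the 11 rose.

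Among type 1 genes, Ager, Aqp5, Clic5, an intracellular chloride channel protein (1.35), Emp2, a membrane protein (1.12), Akap5, a kinase anchor (1.10), Hopx, a homeodomain protein (1.01), and Sema3e, a guidance cue (0.93), rose. The list median was 0.89, and 0.52 without KO 1. The count depended on single libraries, as 2 of 14 rose without KO 1, 3 without WT 2 and 1 without both, and 1 rose with array weights by group. Without KO 1 the differences were 1.13 for Aqp5, 0.76 for Clic5, 0.47 for Emp2 and 0.48 for Hopx, none of which passed. Pdpn, the podoplanin also present on mesothelium, stood at -0.34 (adjusted p = 0.57).

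Among type 2 genes, Sftpd, Sftpa1, Slc34a2, Cxcl15 and Sftpc rose. Sftpc, the surfactant protein that marks the distal epithelium from early on, read 14.01, 11.50 and 12.84 in knockouts and 11.58, 10.97 and 11.46 in wild type (1.45 ± 0.22, adjusted p = 4.2e-05). Here KO 2 lay within the wild-type range, and without KO 1 the difference was 0.83 (adjusted p = 0.0015). Sftpb (0.53, adjusted p = 0.39), Abca3, the lamellar body lipid transporter (0.31, adjusted p = 0.61), and Cebpa, a factor of type 2 cell maturation (-0.55, adjusted p = 0.22), did not pass. The list median was 0.71, and 0.32 without KO 1. The counts were 5 of 15 without KO 1, 6 without WT 2 and 4 without both. In the other lists of mature lung, Inmt was the 1 of 15 fibroblast genes that rose. The fibroblast list had a median difference of 0.05, and -0.07 without KO 1, and 8 of its 15 differences were positive. Rsph1, a radial spoke protein, was the 1 of 11 ciliated cell genes that rose (1.35), and Cyp2b10 and Cyp4b1 were 2 of 7 lung cytochrome P450 genes. Without KO 1 the difference of Cyp4b1 was 0.78 and did not pass (adjusted p = 0.17). Rsph1 did not separate KO 2 from WT 3, at 6.85, 5.66 and 6.28 in knockouts and 4.18, 4.37 and 6.18 in wild type, and its adjusted p was 0.14 without KO 1 and 0.19 without WT 1.

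Leukocyte genes had the same order of knockout libraries in some members, and none passed with all libraries. Of 13 macrophage genes 0 rose and 0 fell. Lyz2, the lysozyme of macrophages and type 2 cells, read 12.02, 8.25 and 10.23 in knockouts and 8.68, 9.56 and 8.68 in wild type (1.19, adjusted p = 0.068), and Chil3, a secreted chitinase-like protein, 8.88, 4.38 and 6.99 in knockouts and 4.79, 5.28 and 5.31 in wild type (1.63, adjusted p = 0.14). Without WT 2 Lyz2 passed (1.49, adjusted p = 0.046), and without KO 1 its difference was 0.27 (adjusted p = 0.76). The alveolar macrophage markers Marco and Siglecf lay at or below 5.29 in all 6 libraries. Lymphocyte and MHC class II genes averaged 7.68, 6.16 and 6.78 in knockouts and 7.10, 6.78 and 7.01 in wild type, and 0 of 12 passed. Fetal heart genes were present in all 6 libraries, and their list mean was 13.30, 12.21 and 11.96 in knockouts and 11.54, 11.29 and 11.66 in wild type. Each knockout library was above each wild-type one, and 5 of the 11 genes were higher without overlap, as 8.02% of all genes were, while 0 of 11 passed. KO 1 was the highest, with the ventricular Myl2 at 13.91, 10.94 and 9.90 in knockouts and 7.81, 8.48 and 8.41 in wild type. The part of heart tissue or of other cells in the rises was not tested.

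**Figure D3:**
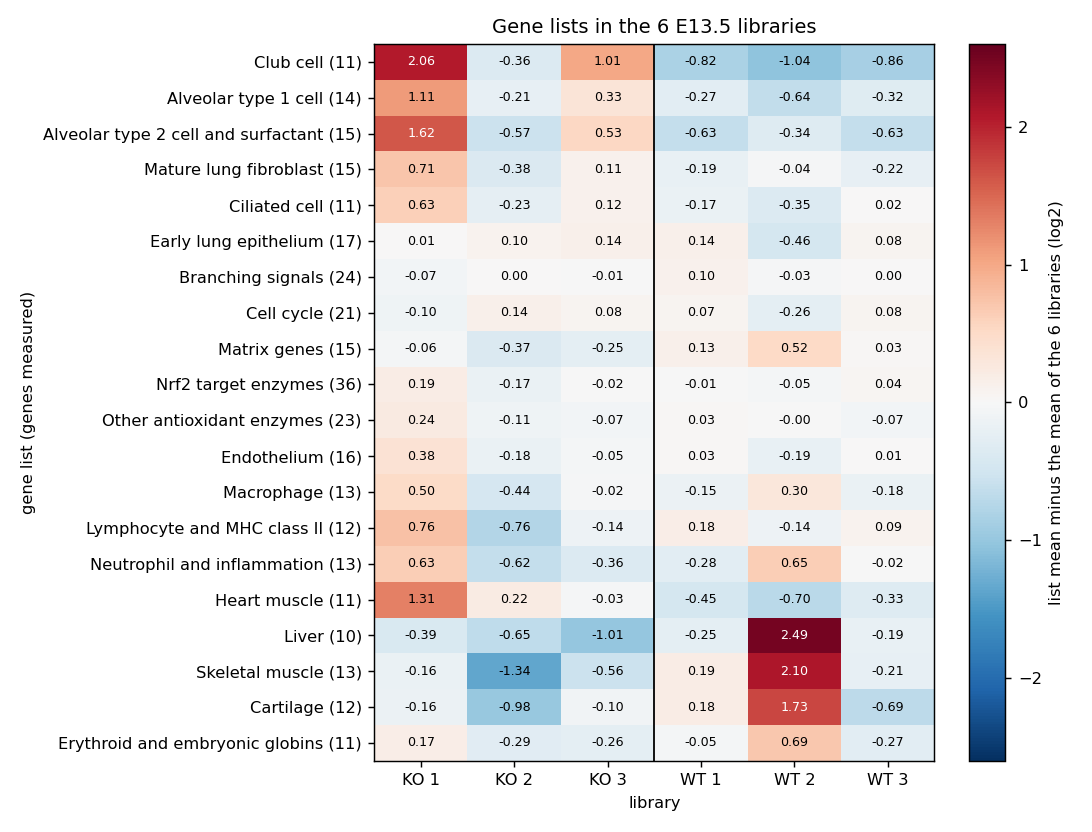
Mean level of each gene list in each E13.5 library, minus the mean of the 6 libraries (log2, red higher, blue lower), with the number of genes measured in brackets. KO 1 is highest in the club cell, alveolar and heart lists, and WT 2 is highest in the liver, skeletal muscle and cartilage lists, with a liver list mean of 9.11.

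Of 12 genes of the Nrf2 pathway, Nfe2l2 alone passed. Keap1, the Nrf2 repressor, read 9.48, 8.97 and 9.46 in knockouts and 9.41, 9.11 and 9.36 in wild type (0.01, adjusted p = 0.99). Mafg, a small Maf partner, read 9.0, 9.22 and 9.25 in knockouts and 9.47, 9.44 and 9.56 in wild type (-0.34, adjusted p = 0.33). Its groups did not overlap, as in 9.24% of all genes in that direction. Those of Nfe2l2 did not overlap either, and the other 10 pathway genes overlapped. Sqstm1, the autophagy adaptor that competes for Keap1, stood at -0.21 (adjusted p = 0.37). Bach1, a repressor at the same DNA element, stood at -0.19 (adjusted p = 0.61).

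Of 36 Nrf2 target enzymes measured, 1 rose and 0 fell, against 0.726% and 1.24% of all genes. The list median was -0.04, and its mean level was 8.65, 8.29 and 8.44 in knockouts and 8.45, 8.41 and 8.50 in wild type, so the groups overlapped. The gene that rose was Aox3, an aldehyde oxidase, at 7.37, 5.88 and 6.10 in knockouts and 5.08, 4.97 and 5.28 in wild type (1.34 ± 0.26, adjusted p = 0.0022). It is itself among the 263 mature lung genes, and without KO 1 its difference was 0.88 (adjusted p = 0.078). Nqo1, the quinone reductase that is a standard readout of Nrf2, read 7.37, 7.23 and 7.51 in knockouts and 7.40, 7.57 and 7.20 in wild type (-0.02 ± 0.21, adjusted p = 0.99). Gclc, the catalytic subunit of glutathione synthesis, stood at -0.04 (adjusted p = 0.95) and Gclm, its modifier subunit, at -0.28 (adjusted p = 0.42), with 10.13, 10.04 and 10.17 in knockouts and 10.45, 10.35 and 10.36 in wild type. The Gclm values did not overlap, as in 9.24% of all genes and 8.18% of probe sets in that direction. Hmox1, haem oxygenase, stood at -0.47 (adjusted p = 0.28) and Gpx2, a glutathione peroxidase of epithelia, at -1.22 (adjusted p = 0.15).

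Gsta3, whose promoter is shown above, read 7.65, 5.14 and 5.75 in knockouts and 5.50, 4.15 and 5.12 in wild type at E13.5 (1.26 ± 0.37, adjusted p = 0.068). At the other 10 ages its difference ranged between -2.82 and -0.11, and the departure of E13.5 by 2.96 passed (adjusted p = 1.3e-06). Aox3 (2.42), the related aldehyde oxidase Aox1 (1.64, adjusted p = 6.2e-05) and the glutathione transferase Gsta2 (1.06, adjusted p = 0.033) departed in the same direction, 4 of 36 targets, against 4.19% of all genes. At E13.5 itself Aox1 stood at 0.53 (adjusted p = 0.37) and Gsta2 at 0.95 (adjusted p = 0.072). The wild-type means at E13.5 were 4.92 for Gsta3, 5.11 for Aox3 and 5.84 for Aox1. With a signal of 0 at 4, this limits the fall that could be seen at this age, most of all for Gsta3. The part of low expression in the departures was not tested. Of 23 other antioxidant enzymes 0 rose and 0 fell, with a median of -0.01.

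The genes that fell had a different distribution over libraries. The 15 largest falls among genes that passed and did not overlap (206 genes, 1.13% of those tested, and 0.873% of probe sets) ran between -3.82 for Nfe2l2 and -1.29 for Sema5a, a semaphorin. WT 2 was the highest wild-type library in 10 of the 15, and at least 1 unit above both others in 3, Ibsp, Guca2b and Lgi1. The calls depended on single libraries, as 5, 8 and 7 of the 15 were lost without KO 1, KO 2 and KO 3, and 6, 11 and 1 without WT 1, WT 2 and WT 3. Ibsp, the bone sialoprotein of mineralising matrix, read 5.50, 5.79 and 6.11 in knockouts and 7.75, 12.02 and 7.03 in wild type (-3.13 ± 0.77, adjusted p = 0.020). Without WT 2 its difference was -1.59 (adjusted p = 0.45), and without KO 1 or KO 2 its adjusted p was 0.072. A second Ibsp probe set stood at -1.45 and did not pass. Guca2b, the intestinal hormone uroguanylin, read 5.07, 5.20 and 5.10 in knockouts and 6.30, 8.14 and 6.45 in wild type (-1.84, adjusted p = 0.026), and without WT 2 its difference was -1.25 (adjusted p = 0.33). Scg2, a secretogranin of neuroendocrine granules (-1.96), Emx2, a homeobox factor (-1.76), and Lgi1, a secreted protein of neurons (-1.70), also passed with all libraries. Without WT 2 their differences were -1.64, -1.42 and -1.35 and did not pass (adjusted p = 0.077, 0.12 and 0.13). A second Lgi1 probe set stood at -0.44 and did not pass.

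**Figure D4:**
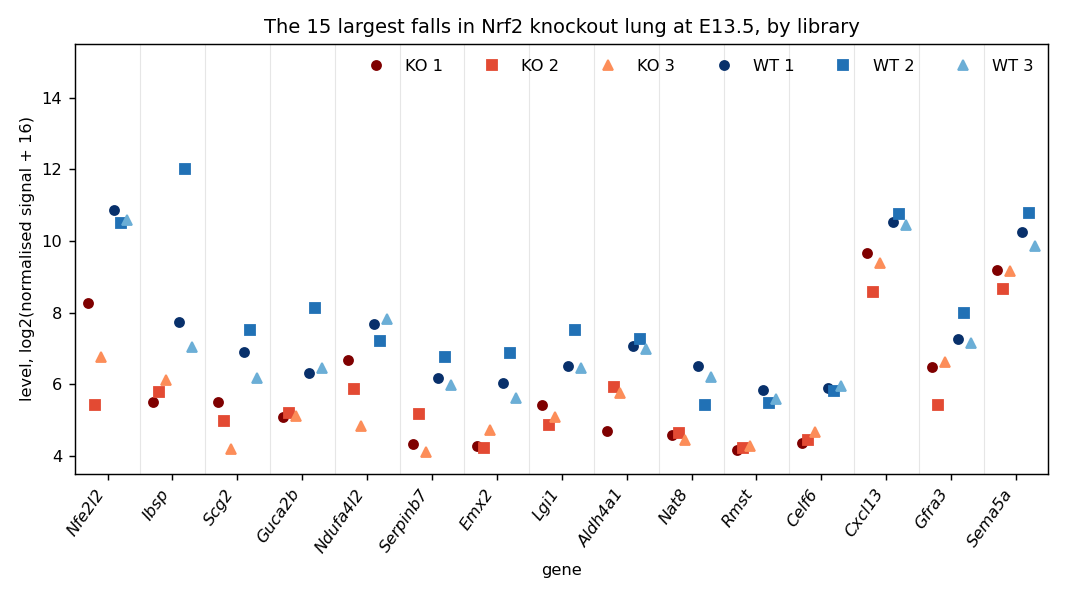
Level of the 15 genes with the largest falls, as log2(normalised signal + 16), in each knockout (red) and wild-type (blue) library at E13.5. WT 2 is the highest of the wild-type libraries in 10 of the 15, most of all in Ibsp, at 12.02 against 7.75 and 7.03 in the other wild-type libraries.

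Falls that kept their call without WT 2 were 4 of 15. Ndufa4l2, a hypoxia-inducible subunit-like protein of mitochondria, read 6.67, 5.87 and 4.82 in knockouts and 7.67, 7.20 and 7.81 in wild type (-1.77 ± 0.27, adjusted p = 6.2e-05, 0.00015 without WT 2 and 0.0035 with array weights by group). Sema5a read 9.20, 8.67 and 9.15 in knockouts and 10.24, 10.78 and 9.85 in wild type (-1.29 ± 0.24, adjusted p = 0.00079). Its 3 other probe sets had differences between -0.47 and 0.26, and 0 of them passed. Nat8, an N-acetyltransferase, was dim, at 4.57, 4.65 and 4.44 in knockouts and 6.50, 5.41 and 6.21 in wild type (-1.49 ± 0.35, adjusted p = 0.012). Its call was lost without WT 1 (adjusted p = 0.11) and without KO 3 (0.051). With Nfe2l2 these make the 4. The other falls were Serpinb7, a serine protease inhibitor (-1.77), Aldh4a1, an enzyme of proline breakdown (-1.65), the non-coding RNA Rmst (-1.41), Celf6, an RNA-binding protein (-1.39), Cxcl13, a chemokine of B cells (-1.37), and Gfra3, the artemin receptor (-1.30). Their adjusted p was between 0.0086 and 0.040, and without WT 2 between 0.068 and 0.25. Their differences without WT 2 were -1.55 for Serpinb7, -1.58 for Aldh4a1, -1.49 for Rmst, -1.43 for Celf6, -1.28 for Cxcl13 and -1.04 for Gfra3, each within 1.5 times its value with all libraries. A second Cxcl13 probe set also passed with all libraries (-1.22), and a second Rmst probe set stood at 0.07 and did not.

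Marker lists of neighbouring tissues were measured in the same libraries. Liver genes averaged 6.23, 5.97 and 5.61 in knockouts and 6.37, 9.11 and 6.43 in wild type, with Alb, serum albumin, at 11.78 and Afp, fetal alpha-fetoprotein, at 12.77 in WT 2. Skeletal muscle genes averaged 8.47, 7.29 and 8.07 in knockouts and 8.82, 10.73 and 8.42 in wild type, and cartilage genes 8.43, 7.61 and 8.49 in knockouts and 8.77, 10.32 and 7.90 in wild type. In each of the 3 lists WT 2 was the highest of the 6 libraries, and 0 of 10, 0 of 13 and 0 of 12 members passed. Of the skeletal muscle genes 7 of 13 were lower without overlap, as 9.24% of all genes were. Their part in the falls was not tested.

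Of 15 matrix genes, 3 fell and 0 rose, against 1.24% of all genes that fell, and all 15 differences were negative (median -0.27). With signals as deposited 5 fell and the median was -0.60, and with array medians subtracted 2 fell and the median was -0.53. Eln, elastin, the elastic fibre protein of vessels and later of alveolar walls, read 11.49, 10.33 and 10.66 in knockouts and 12.66, 11.76 and 11.90 in wild type (-1.28 ± 0.23, adjusted p = 0.00052). It also passed without WT 2 (adjusted p = 0.00062), without KO 1 (3.0e-05) and with array weights by group (0.012). Tnc, the matrix glycoprotein tenascin-C, read 9.96, 9.50 and 9.67 in knockouts and 10.54, 11.76 and 9.97 in wild type (-1.05 ± 0.21, adjusted p = 0.0023), and Col6a1, a collagen VI chain, was at -0.65 (adjusted p = 0.028). Without WT 2 Tnc stood at -0.54 (adjusted p = 0.15) and Col6a1 at -0.40 (adjusted p = 0.40). Fbln5, an elastic fibre assembly protein, read 11.66, 10.41 and 10.62 in knockouts and 11.51, 11.62 and 11.67 in wild type. It did not pass with all libraries (-0.71, adjusted p = 0.072), and did without KO 1 (adjusted p = 0.0022).

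Signals of airway branching and proliferation gave no call. Of 24 branching genes 0 rose and 0 fell. Shh, the epithelial signal to the mesenchyme, read 11.12, 11.50 and 11.41 in knockouts and 11.39, 10.08 and 11.42 in wild type (0.38, adjusted p = 0.55), and Fgf10, the mesenchymal growth factor that directs bud outgrowth, 7.04, 6.77 and 7.0 in knockouts and 7.31, 7.30 and 7.13 in wild type (-0.31, adjusted p = 0.66). Of 21 cell cycle genes and 14 genes of the fetal growth programme 0 passed in either direction. Of 14 clock genes, Cry1, a repressor of the circadian loop, rose, at 9.0, 8.95 and 9.20 in knockouts and 7.82, 8.15 and 8.62 in wild type (0.85 ± 0.22, adjusted p = 0.033). Its call held without WT 3 and was lost when any other library was left out (adjusted p = 0.069 without KO 1 and 0.22 at the highest). Of the 34 lists, 10 held a gene that passed. The lists with 0 of either direction, beyond those above, were smooth muscle (10 genes), endothelium (16), mesothelium (8), squamous oesophagus (9), neuroendocrine cells (8), neurons and neural crest (8), erythroid cells (11), neutrophils and inflammation (13), hypoxia (12), immediate early genes (14), cholesterol synthesis (11), interferon response (10) and sex-linked genes (4).

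Rbm45 differed from the other rises. It read 10.82, 10.94 and 10.94 in knockouts and 8.23, 8.92 and 9.54 in wild type (2.00 ± 0.25, adjusted p = 9.8e-07), so the knockout libraries were alike and the wild-type libraries were not. It lies on chromosome 2, 8 measured genes from Nfe2l2 in gene order, and it was also called higher in knockouts at 8 of the 10 other ages, with differences there between 0.53 and 3.33. Its departure at E13.5 was -0.06 (adjusted p = 0.95). Of the 40 measured genes nearest to Nfe2l2, 20 on each side, 1 rose and 1 fell, against 0.726% and 1.24% of all genes. Rbm45 was the rise, and Itga4, an integrin subunit 19 genes away, the fall (-0.67, adjusted p = 0.0097). The groups did not overlap in 10 of the 40, against 17.3% of all genes, and the median difference was 0.04. Without WT 2 Itga4 stood at -0.50 and did not pass (adjusted p = 0.17), nor did it with array weights by group (0.14). Of its 4 other probe sets, with differences between -1.02 and 0.25, 1 passed in the same direction.

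The difference at E13.5 was set against the mean difference of the 10 other ages, which share no samples with it. Of 45037 probe sets, 1389 departed (3.08%), and of the genes 763 (4.19%). The genes with the largest differences were chosen at E13.5, so that most of them departed follows largely from the choice, and their values at the other ages are a description. At no other age were 10 of the 15 rises and 13 of the 15 falls called in the same direction. Calls in the opposite direction at another age were found for 6 of the 15 rises (Scgb1a1, Inmt, Cyp2f2, Sftpd, Chia1 and Il18r1) and 5 of the 15 falls. Among them, Inmt stood at -2.45, Sftpd at -2.04 and Ibsp at 3.08 at E18.5. At E17.5 the same genes stood at 1.32, 1.13 and -2.37, in the direction of E13.5. The cause of this turn between adjacent ages was not tested. At E15.5, the age after E13.5, Scgb1a1 was called higher by 4.21 (adjusted p = 7.7e-07), Inmt by 2.91 (adjusted p = 0.00040) and Rbm45 by 1.22 (adjusted p = 0.013). Cyp2f2 stood at -0.13 and Hp at -0.53 there, neither of which passed.

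**Figure D5:**
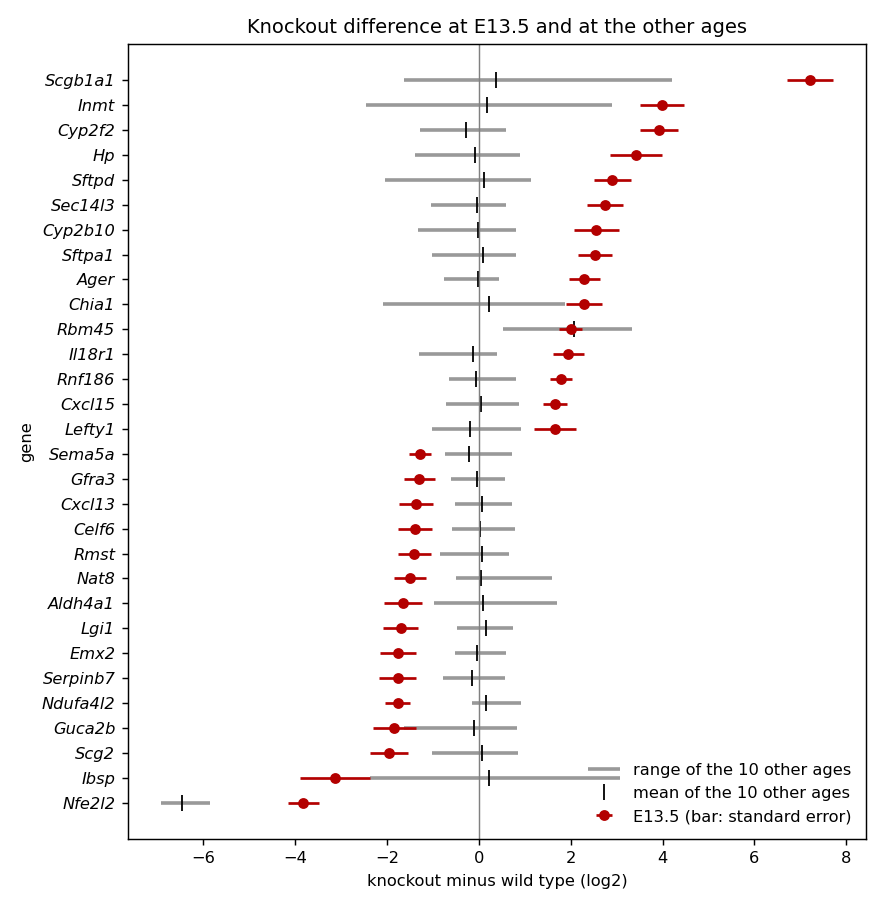
Knockout minus wild-type difference (log2) at E13.5 (red point, with its standard error) for the 15 largest rises and 15 largest falls, beside the range (grey) and mean (tick) of the differences at the 10 other ages. Scgb1a1 stands at 7.21 against a range up to 4.21, Rbm45 lies within its range of 0.53 to 3.33, and Nfe2l2 stands at -3.82 against -6.91 to -5.85.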

How the data were processed

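RNA of the 6 samples was measured on Affymetrix arrays. The deposited values are linear intensity signals, which the submitters' processing notes credit to GCOS, with no algorithm or scaling target stated. The 6 columns each had a 2% trimmed mean of 500.003, and medians between 87.3 and 102.6. The 64 controls were left out. The platform annotation gave 1 symbol for 34945 probe sets, several for 932 and none for 9160, and only the first were named, by the probe set of highest mean signal.

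Values of all 66 arrays were quantile normalized and analysed as log2(signal + 16) in a limma model (version 3.58.1, R 4.3.3) with 22 group means and moderated, intensity-dependent variances (44 residual and 6.69 prior degrees of freedom). P-values are two-sided and Benjamini-Hochberg adjusted over 45037 probe sets, threshold 0.05. The model was tested on simulated data. The simulation gave each probe set the same spread in all groups, so it does not cover libraries that are unlike within a group. The number of arrays limits the precision.

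Named genes were all Nfe2l2 probe sets, the 15 largest rises and falls that passed without overlap, the 5 genes farthest above and below in each library, the 5 largest departures each way, neighbours of Nfe2l2 and members of 34 lists (454 of 487 entries measured), passing over predicted loci and, outside lists, sex-linked genes. Members and lists were chosen with earlier results of these data known. Other scalings, pseudocounts, filters, sample sets, covariates and left-out libraries were tried. Promoters came from RefSeq (GRCm38.p6).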

Additional observations from a re-analysis of the deposited data

Results flagged for a closer look

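The knockout minus wild-type difference at E13.5 departed from the mean difference of the 10 other ages, by a limma test of that difference itself, in 64 of the named genes, list members, Nfe2l2 neighbours and genes that set single libraries apart (log2, adjusted p under 0.05). Most were chosen for their difference at E13.5, so the sizes below are a description. Nfe2l2 departed by 2.65, a smaller loss at E13.5 than at the later ages. Among club cell genes the departures were Scgb1a1 (6.83), Cyp2f2 (4.18), Hp (3.52), Cbr2 (2.43), Scgb3a2 (1.51) and Aldh1a1 (1.42). Among type 1 genes they were Ager (2.31), Aqp5 (1.53), Clic5 (1.39), Emp2 (1.12), Akap5 (1.13), Hopx (0.99), Sema3e (1.11), Rtkn2 (1.01), Cldn18 (1.01) and Cav2 (0.74), and among type 2 genes Sftpd (2.80), Sftpa1 (2.43), Slc34a2 (2.25), Cxcl15 (1.62), Sftpc (1.43) and Lyz1 (1.35). Other genes whose difference was more positive at E13.5 than at the other ages were Inmt (3.81), Rsph1 (1.48), Cyp2b10 (2.57), Cyp4b1 (1.57), Sec14l3 (2.79), Chia1 (2.06), Il18r1 (2.07), Rnf186 (1.85), Lefty1 (1.86), Cry1 (0.83), Scn7a (1.05) and Lyz2 (1.25). Of the Nrf2 targets, Gsta3 (2.96), Aox3 (2.42), Aox1 (1.64) and Gsta2 (1.06) departed, with Gsta3 and Aox3 dim in wild type at E13.5. Among the falls, the departures were Ibsp (-3.35), Scg2 (-2.04), Guca2b (-1.74), Ndufa4l2 (-1.93), Serpinb7 (-1.63), Emx2 (-1.73), Lgi1 (-1.85), Aldh4a1 (-1.75), Nat8 (-1.54), Rmst (-1.48), Celf6 (-1.41), Cxcl13 (-1.44), Gfra3 (-1.27) and Sema5a (-1.08), and among matrix genes Eln (-1.35), Tnc (-0.92) and Col6a1 (-0.76). Serpina6 (-1.88), a liver-made hormone carrier that was high in WT 2 (9.93), and Trim12c (-2.02), which read between 4.04 and 4.26 in all 6 libraries at E13.5 and differed at other ages by up to 5.35, were also among them. More negative at E13.5 too were Cebpa (-0.92), Mfap4 (-0.66), Dlk1 (-1.70), Itga4 (-0.79), Hoxc9 (-1.74) and Epop (-1.48). The knockout libraries ran in the order KO 1, KO 3, KO 2 in 13 of the 15 largest rises, and WT 2 was the highest wild-type library in 10 of the 15 largest falls. The part of these libraries in the departures was not tested.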

How the results depend on the processing

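The 692 probe sets that passed at E13.5 became 0 with the 6 E13.5 libraries fitted alone (4102 at an unadjusted p under 0.05), 389 with PND1 to PND4 left out of the fit, 1102 when each array was brought to 1 trimmed mean, 414 when only 1 probe set per gene was tested and adjusted over and 104 with array weights by group. Leaving out 1 library gave between 325 and 1693. With settings chosen after seeing the data, the count was 222 without KO 1 and WT 2, and, in the 6 libraries alone, 0 with the replicate block, 0 without KO 1 and 1 without WT 2. The 1389 departures from other ages became 700 with the 24 embryonic libraries, 625 with PND1 to PND4 left out, 376 with array weights by group and 578 without KO 1 and WT 2, and leaving out 1 library gave between 718 and 2293. The causes were not tested. Same-numbered libraries did not deviate together (correlations -0.169, -0.145 and -0.047), and with the number as a replicate block 596 probe sets passed and 1106 departed. Over 51 single genes, 1364 comparisons with another setting gave 974 on the same side of the threshold, 382 that lost the call, 8 that gained it and 0 with the sign turned. Without detection calls, signal over background could not be judged for dim genes.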
